A study of Mus musculus with 14 samples.

Results

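Back skin of wild type C57BL/6 mice taken 6 h after exposure to a mixed UV source (3 libraries) was compared with unirradiated back skin (T0, 2 libraries), 5 of the 14 libraries of a time course that also sampled 0.5, 2, 12 and 24 h. The members are all 10980 genes of the deposited table, compared between the 3 libraries at 6 h and the 2 at T0. Animals of both groups had their fur depilated, and the RNA came from the full thickness of the skin, so epidermis, hair follicles, dermis, fat and the skin's own muscle contribute together. In such tissue, fewer cells of a type and less RNA per cell cannot be told apart. No unirradiated skin was taken at a later time, the labels do not give the UV dose or the time of day, and nothing in them ties each library to an animal of its own, so the p-values measure the spread between these libraries alone. A change at 6 h therefore cannot be told apart from a change with the time of day or with the time since depilation.

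The libraries fall into 3 sets by the number format and header of their columns, and libraries of a set resemble each other. Sets 1 and 2 each hold a T0 and a 6 h library, while the 6 h library of set 3 has no unirradiated partner. Across genes the Spearman correlation of the 6 h library with T0 was 0.966 in set 1 and 0.961 in set 2, against 0.908 to 0.917 between the 6 h libraries of different sets. The 6 h libraries of sets 2 and 3 held 12327907 and 14739473 reads over the listed genes and the T0 library of set 2 held 13069488, as recovered from the FPKM values; the depth of set 1 is unknown. Below, library values are given in the order set 1, set 2, set 3 at 6 h and set 1, set 2 at T0, in FPKM (a library's fragments on a transcript, scaled for transcript length and sequencing depth). The basal and suprabasal keratinocyte, fibroblast, hair, melanocyte, fat and muscle markers checked were all measured, whereas Adgre1 of macrophages, Itgax of dendritic cells, Cd3e and Cd3d of T cells and Csf3r, Cxcr2, Retnlg and Mmp8 of neutrophils were not analysed here.

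UV light damages DNA and membranes of keratinocytes. In the hours that follow, irradiated keratinocytes are known to release cytokines and ligands of the epidermal growth factor receptor (EGFR), to activate p53 and excision repair, and to change their differentiation; the skin then reddens and the epidermis thickens. The epidermal differentiation complex, a gene cluster on mouse chromosome 3, encodes many of the proteins that are cross-linked into the cornified envelope of dead surface cells.

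At 6 h, 99 genes rose and 375 fell against T0. They make up 0.902% and 3.42% of the 10980 genes tested, and both together 4.32% (limma on log2(FPKM + 1) with the library set as a term, Benjamini-Hochberg adjusted p under 0.05). Changes of this kind are given as log2 change ± SE. Of the genes that rose, 21 changed by 1 or more, with a median of 0.66, and of those that fell 86 changed by -1 or less, with a median of -0.74. The median over all genes was -0.02. At an unadjusted p under 0.05 in limma there were 2414 of the 10980 genes, the background for such counts in lists below. No called gene had opposite signs in the 2 matched pairs of libraries. All 3 libraries at 6 h lay above both T0 libraries for 64 of the 99 genes that rose, against 6.72% of all genes. They lay below both for 279 of the 375 that fell, against 15.8% of all genes. The calls were made on these same libraries. These counts and the matching signs therefore follow largely from the selection and do not support the calls.

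**Figure D1:**
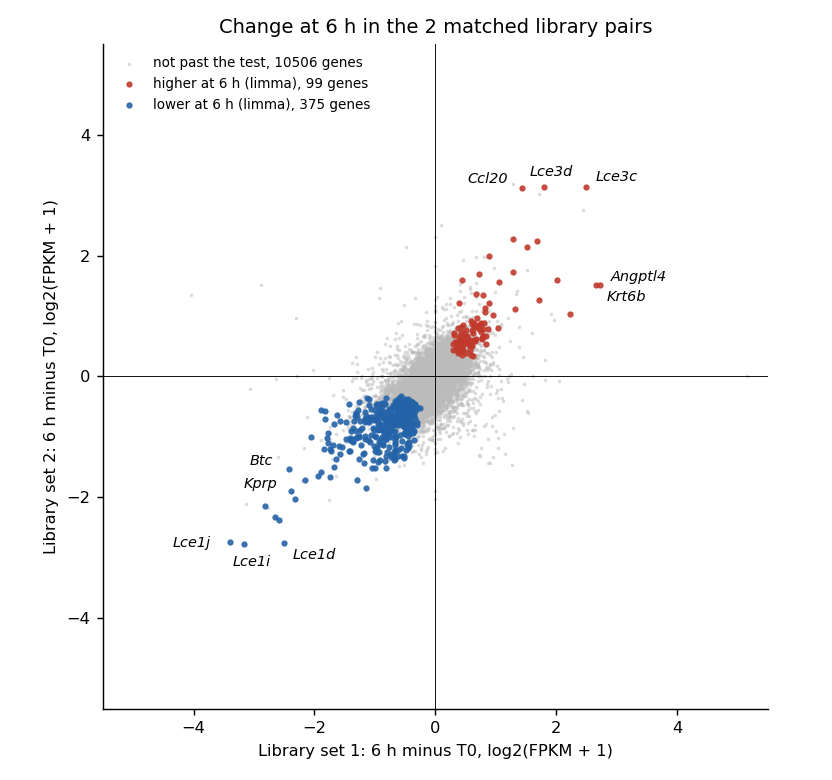
Each point is 1 gene, with its 6 h minus T0 difference in log2(FPKM + 1) within library set 1 on the x axis and within library set 2 on the y axis; red points rose and blue points fell by limma, and grey points did not pass. The 99 red genes lie at the upper right and the 375 blue genes at the lower left, with Lce3c and Lce3d at one end and Lce1j and Lce1i at the other.

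The number of calls rests on single libraries. The direction of the 115 called genes that are named by rule did not change when any 1 of the 14 libraries was left out. Leaving out the 6 h library of set 2 left 2 calls, that of set 1 left 261, and that of set 3 gave 960. Without the T0 library of set 1 there were 69 calls and without that of set 2 there were 14; of the libraries that enter through the shared estimate of the spread, omitting 0.5 h in set 1 gave 234, 0.5 h in set 3 gave 226, 2 h in set 1 gave 277 and 12 h in set 1 or in set 2 gave 312. Among those 115 genes, Lce3c and Osr2 passed in all 14 of these fits, whereas 113 did not pass without the 6 h library of set 2. Falls made up 79.1% of the calls, 60.8% after quantile normalization (222 genes rising, 345 falling) and 63.7% when libraries were scaled by median of ratios (144 rising, 253 falling). Without a term for the library set, 0 genes passed in limma, with 615 at an unadjusted p under 0.05, against 2414 with it.

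The 2 genes with the largest rises were Lce3c and Lce3d, late cornified envelope genes known for being switched on when the skin barrier is injured. Lce3c (chromosome 3, 92944486 to 92945730 in GRCm38) had 35.0, 15.9 and 53.9 FPKM at 6 h, against 5.35 and 0.914 FPKM at T0. The 3 values at 6 h all lay above both values at T0. In whole reads, the libraries at 6 h of sets 2 and 3 held 114 and 461, against 7 in the T0 library of set 2. Lce3c rose by 3.02 ± 0.27 (limma adjusted p = 0.00261), and by 2.50 in set 1 and 3.14 in set 2. Lce3d had 25.6, 17.1 and 34.9 FPKM at 6 h, against 6.65 and 1.05 FPKM at T0, and rose by 2.97 ± 0.54 (adjusted p = 0.0211), or by 3.57 without the 6 h library of set 1. Lce3b, the third measured member, was listed at 0 in sets 1 and 2 at 6 h and at 1.17 FPKM in set 3, against 0.189 and 0 FPKM at T0, which gives no fold. Copies of the Lce family are alike enough for a read to match several of them, so values of single members are uncertain.

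The Lce1 genes, which lie beside Lce3 in the same complex and are known as envelope genes of normal epidermis, were lower at 6 h. Of 14 measured, 8 fell, 0 rose and 6 did not pass, against 3.42% of all genes falling. All 14 estimates were negative, and their median was -2.08 (set 1 -2.24, set 2 -2.04), against -0.02 over all genes. Copies may share reads, so the 14 are not separate observations. Lce1j (chromosome 3, 92788844 to 92790514) had 3.72, 1.57 and 3.30 FPKM at 6 h, against 48.4 and 16.2 FPKM at T0, and fell by 3.11 ± 0.51 (limma adjusted p = 0.0159). Lce1i had 7.17, 2.79 and 4.33 FPKM at 6 h, against 72.7 and 25.0 FPKM at T0, and fell by 2.98 ± 0.37 (adjusted p = 0.00769). The groups did not overlap for either gene. In 13 of the 14 Lce1 genes all 3 libraries at 6 h lay below both at T0, against 15.8% of all genes. The exception, Lce1m, had 105.1, 68.0 and 180.7 FPKM at 6 h, against 393.5 and 142.4 FPKM at T0, with a change of -1.31 ± 0.57. The other falls of the family were Lce1d (-2.61), Lce1h (-2.54), Lce1k (-2.41), Lce1l (-2.33), Lce1e (-2.10) and Lce1g (-2.06).

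Kprp, a keratinocyte proline-rich protein gene located among the Lce1 genes, had 27.2, 24.8 and 43.4 FPKM at 6 h, against 146.6 and 95.4 FPKM at T0, and fell by 1.94 ± 0.32 (limma adjusted p = 0.0164). The filaggrin-like genes Flg2 and Hrnr, farther along the complex, had estimates of -2.26 ± 0.67 (adjusted p = 0.0826) and -1.70 ± 0.53 (adjusted p = 0.0943) and did not pass. Flg2 had 17.3, 26.3 and 29.1 FPKM at 6 h, against 160.3 and 116.9 FPKM at T0, so its groups were apart although its SE was wide. Of the 53 measured genes between S100a1 and S100a10, 2 rose and 11 fell, against 0.902% and 3.42% of all genes. Their estimates were positive in 28 and negative in 25. By sign, 14 of 14 Lce1 genes were negative, while 3 of 3 Lce3 genes and 9 of 10 Sprr genes (small proline-rich envelope proteins) were positive. Of 12 S100 genes 10 were positive with 0 past the test, and 0 Sprr genes rose past it. Over all genes 5232 of 10980 estimates were positive. Signs alone say little about the Sprr and S100 genes, since 75 of 77 ribosomal protein genes were also positive. Lce3b had only 0.13 ± 0.46. Sprr4, the 1 negative Sprr gene, had 157.7, 418.5 and 319.4 FPKM at 6 h, against 384.1 and 615.2 FPKM at T0, and fell by 0.92 ± 0.18 (adjusted p = 0.0255), with a 6 h value in set 2 above the T0 value of set 1. Sprr2g and Sprr1b had the highest estimates among the Sprr genes, 1.71 ± 0.50 and 1.47 ± 0.44, with adjusted p of 0.0787 and 0.0859.

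**Figure D2:**
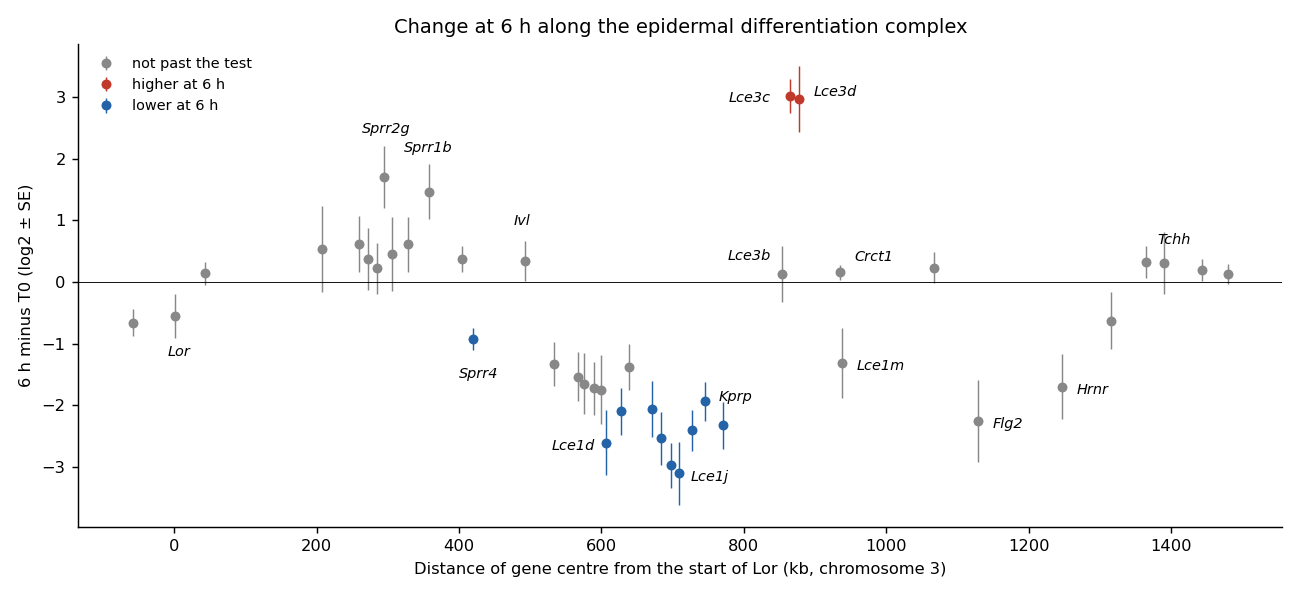
Fitted change at 6 h against T0 (log2, with SE bars) of genes of the epidermal differentiation complex, from the region just before Lor onward, by distance of the gene centre from the start of Lor in kb. The block of Lce1 genes with Kprp lies between -1.38 and -3.11, Lce3c and Lce3d stand near 3 beyond the end of that block, and Lce1m, beyond Lce3, is again negative.

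The promoters of 2 Lce3 genes that rose and 2 Lce1 genes that fell are shown because both families carry the same TATA-like element near the start site. The sequences are from RefSeq (GRCm38.p6), 250 bases before to 50 after the annotated start, read 5′ to 3′ on the gene's strand, with ATAAAAG in capitals. Lce3c is at chr3:92944236-92944535 and Lce3d at chr3:92957140-92957439, both on the plus strand. Lce1i is at chr3:92778850-92779149 and Lce1j at chr3:92790465-92790764, both on the minus strand.
Lce3c: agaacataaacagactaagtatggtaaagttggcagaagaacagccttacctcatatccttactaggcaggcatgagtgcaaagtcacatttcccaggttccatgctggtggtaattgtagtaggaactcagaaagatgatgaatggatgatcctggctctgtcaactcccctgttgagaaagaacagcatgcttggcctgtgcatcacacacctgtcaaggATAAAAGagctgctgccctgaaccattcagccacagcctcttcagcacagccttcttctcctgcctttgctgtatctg
Lce3d: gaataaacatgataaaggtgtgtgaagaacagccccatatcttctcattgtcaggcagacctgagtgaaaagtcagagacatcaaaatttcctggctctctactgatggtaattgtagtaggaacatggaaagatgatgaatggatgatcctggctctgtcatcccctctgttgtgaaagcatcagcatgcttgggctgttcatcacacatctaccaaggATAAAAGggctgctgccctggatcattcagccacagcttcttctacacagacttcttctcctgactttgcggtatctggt
Lce1i: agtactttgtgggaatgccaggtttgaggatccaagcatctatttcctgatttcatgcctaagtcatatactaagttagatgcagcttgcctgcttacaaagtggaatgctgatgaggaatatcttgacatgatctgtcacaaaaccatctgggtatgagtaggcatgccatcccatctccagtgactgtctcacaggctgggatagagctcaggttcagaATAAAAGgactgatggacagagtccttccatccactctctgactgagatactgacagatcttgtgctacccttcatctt
Lce1j: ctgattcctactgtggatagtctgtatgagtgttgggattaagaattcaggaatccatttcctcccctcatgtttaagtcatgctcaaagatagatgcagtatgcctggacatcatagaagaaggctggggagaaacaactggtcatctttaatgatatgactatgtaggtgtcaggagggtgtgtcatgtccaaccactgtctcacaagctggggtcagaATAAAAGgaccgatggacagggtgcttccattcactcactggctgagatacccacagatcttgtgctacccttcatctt
The element begins at -28 in Lce3c, -30 in Lce3d and -29 in Lce1i and Lce1j. Searched on both strands, ATAAAAG was found in 3 of 3 Lce3 and 10 of 13 Lce1 promoters in the table, against 3.66% of the 8435 promoters of measured genes. Aligned end to end promoters of Lce1 and Lce3 genes were 46.9 to 54.3% identical (39 pairs), Lce1 genes among themselves 48.6 to 86.0% (78 pairs), and Lce3 genes 57.0 to 77.2% (3 pairs), the highest being Lce3c with Lce3d. The ranges overlap: Lce1l and Lce1m were 48.6 to 52.5% identical to the other Lce1 genes. The match is a description of these letters and shows no binding.

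Other epidermal genes linked with wounding were among the rises, though few members of each group passed. In a list of 21 measured wound and antimicrobial genes 2 rose and 0 fell, against 0.902% and 3.42% of all genes. The list's median was 0.24. Outside this list, the antimicrobial gene Pglyrp4 had 3.68, 5.91 and 11.9 FPKM at 6 h, against 12.1 and 10.6 FPKM at T0. It fell, with a change of -1.04 ± 0.25 (limma adjusted p = 0.0437), and its groups overlapped. Krt6b, a keratin of wounded and overgrowing epidermis, had 11.9, 2.03 and 22 FPKM at 6 h, against 1.04 and 0.0658 FPKM at T0, and rose by 2.40 ± 0.59 (limma adjusted p = 0.0475). Its groups did not overlap, but its estimate was 1.73 (adjusted p = 0.272) without the T0 library of set 1, 3.04 (adjusted p = 0.141) without that of set 2, and 1.19 (adjusted p = 0.276) with a pseudocount of 5. Krt6a, a close copy, had 149.7, 158.5 and 306.8 FPKM at 6 h, against 170.2 and 136.3 FPKM at T0, with a change of 0.05 ± 0.19, and reads may be split between the copies. Krt16, the partner keratin, had 72.1, 40.7 and 272.8 FPKM at 6 h, against 27.1 and 22.8 FPKM at T0, with a change of 1.71 ± 0.61 (adjusted p = 0.139); its groups did not overlap, and set 3 stood highest. Gjb6, a gap junction gene, rose by 0.63 ± 0.14 (adjusted p = 0.0374), although its 6 h value in set 3, 39.4 FPKM, lay below both T0 values, 46.1 and 44.0 FPKM.

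Of 15 measured chemokines 1 rose and 1 fell, against 0.902% and 3.42% of all genes. Ccl20, which attracts dendritic cells and lymphocytes through the receptor CCR6, had 5.03, 9.98 and 12.1 FPKM at 6 h, against 1.24 and 0.275 FPKM at T0, with 102 and 147 reads in sets 2 and 3 at 6 h, against 3 in set 2 at T0. It rose by 2.35 ± 0.33 (limma adjusted p = 0.00934), by 2.98 without the T0 library of set 1, and had 1.74 (adjusted p = 0.0756) without that of set 2. Cxcl12, a chemokine of dermal stroma, had 19.4, 11.5 and 17.2 FPKM at 6 h, against 35.1 and 19.2 FPKM at T0, and fell by 0.79 ± 0.14. The neutrophil chemokine genes Cxcl1 (0.947, 3.06 and 5.42 FPKM at 6 h, against 0.216 and 0.388 FPKM at T0) and Cxcl2 (0.393, 1.67 and 3.16 FPKM at 6 h, against 0.0549 and 0 FPKM at T0) were low, and each had its 3 values at 6 h above both at T0. Their estimates, 1.24 ± 0.65 and 1.08 ± 1.10, did not pass.

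Among interleukins, growth factors and their receptors 0 of 15 rose and 3 fell, against 0.902% and 3.42% of all genes, with a median of -0.49. Il6ra, the interleukin 6 receptor, had 2.96, 4.44 and 4.57 FPKM at 6 h, against 12.6 and 10.7 FPKM at T0, and fell by 1.31 ± 0.23 (limma adjusted p = 0.0204), without overlap. Il34, the keratinocyte ligand of the receptor Csf1r that keeps Langerhans cells in the epidermis, had 4.53, 3.04 and 6.70 FPKM at 6 h, against 11.5 and 9.90 FPKM at T0, and fell by 1.20 ± 0.18 (adjusted p = 0.0121). Csf1, the other ligand of that receptor, fell by 0.92 ± 0.18, and Csf1r itself by 1.02 ± 0.20, the 1 call among 19 monocyte and macrophage genes (median -0.61). For Il34 and Csf1 all 3 values at 6 h lay below both at T0; for Csf1r the set 3 value at 6 h, 14.9 FPKM, lay between the T0 values of 8.69 and 16.4 FPKM. Il1a (-0.49 ± 0.22), Il1b (0.44 ± 0.83) and the antagonist Il1rn (-0.15 ± 0.14) did not pass, nor did any of 16 NF-kB members and feedback inhibitors in limma (3 at an unadjusted p under 0.05).

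Ligands of the EGFR moved in opposite directions. Areg (amphiregulin; chromosome 5, 91139599 to 91148432) had 26.1, 25.1 and 27.9 FPKM at 6 h, against 12.0 and 7.86 FPKM at T0, and rose by 1.5 ± 0.22 (limma adjusted p = 0.0108). Btc (betacellulin; chromosome 5, 91357261 to 91402994), encoded close by on the same chromosome, had 0.701, 2.07 and 2.66 FPKM at 6 h, against 8.08 and 7.86 FPKM at T0, and fell by 1.76 ± 0.27 (adjusted p = 0.0117). Neither gene's groups overlapped. Epgn (epigen), a further ligand, had 13.7, 27.9 and 30.2 FPKM at 6 h, against 7.38 and 6.35 FPKM at T0, also without overlap, but its estimate of 1.84 ± 0.46 did not pass (adjusted p = 0.0533). Egfr was at 25.7, 29.96 and 17.1 FPKM at 6 h, against 27.9 and 28.2 FPKM at T0, with a change of 0.10 ± 0.16. Lrig1, a feedback inhibitor of the receptor and a follicle stem cell marker, fell by 0.57 ± 0.12. Of the 22 measured genes of this group 1 rose, 2 fell and 19 did not pass, with a median of 0.09. Over all genes 0.902% rose and 3.42% fell.

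The Areg promoter (RefSeq, GRCm38.p6, chr5:91139349-91139648, plus strand) is shown because it holds the full cyclic AMP response element TGACGTCA, in capitals, which is rare among promoters of this length.
Areg: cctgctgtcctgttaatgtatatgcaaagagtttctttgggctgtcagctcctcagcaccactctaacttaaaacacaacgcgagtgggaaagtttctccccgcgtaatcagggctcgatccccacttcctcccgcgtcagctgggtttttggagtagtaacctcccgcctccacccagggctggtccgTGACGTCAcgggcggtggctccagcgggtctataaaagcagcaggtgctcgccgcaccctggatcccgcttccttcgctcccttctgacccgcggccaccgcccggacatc
The element begins at -61 and reads the same on both strands. It was found in 3.26% of the 8435 promoters, in 3.90% of the 77 promoters of genes that rose and in 2.82% of the 284 of genes that fell. TGANTCA, an AP-1 type motif searched on both strands, was in 5.24% of all promoters, 2.6% of those of genes that rose and 8.10% of those of genes that fell.

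**Figure D3:**
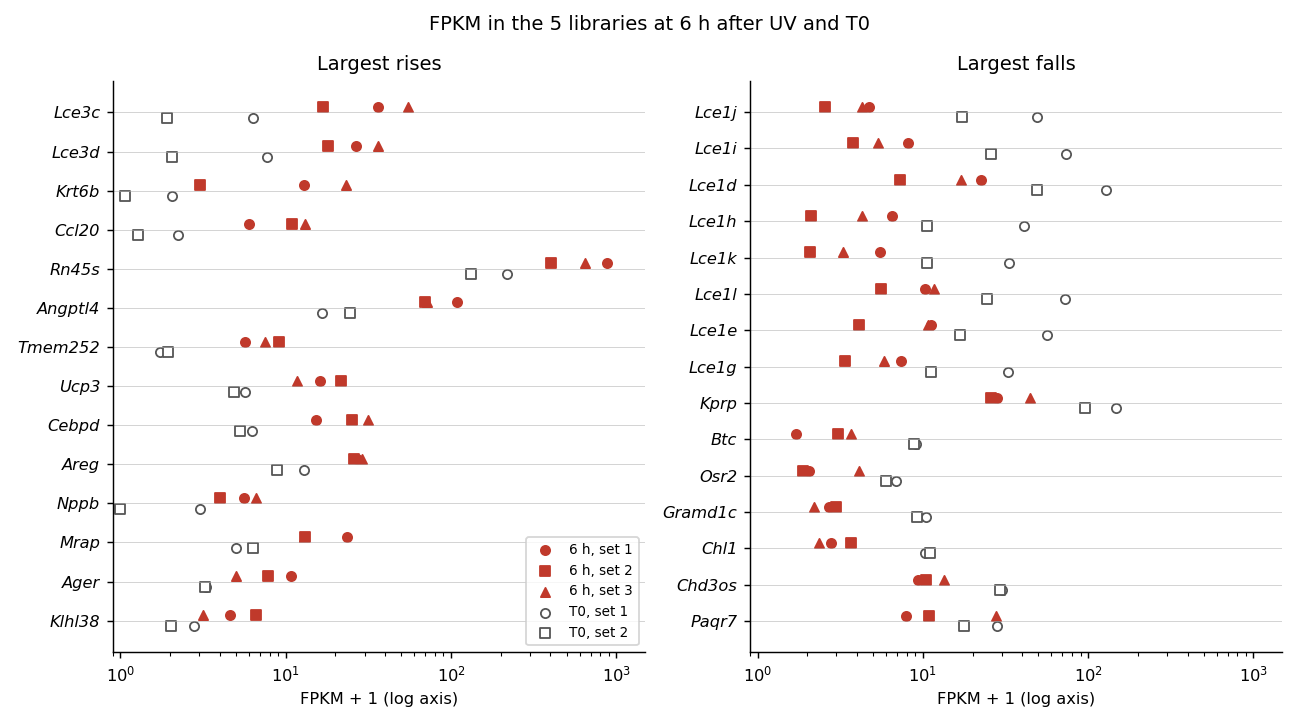
FPKM + 1 (log axis) in each library of 14 genes among the largest rises and 15 among the largest falls, all calls with the same sign in sets 1 and 2; filled red symbols are 6 h and open symbols T0, and circles, squares and triangles are library sets 1, 2 and 3. In 28 of the 29 genes shown the 3 libraries at 6 h lie on 1 side of both T0 libraries; in Paqr7 the 6 h library of set 3, 26.7, lies between the T0 values of 27.1 and 16.7.

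Cells switch on immediate early and feedback genes within minutes of a stimulus, and these genes often restrain it. Of 38 measured, 8 rose and 0 fell, against 0.902% and 3.42% of all genes. The median of the list was 0.22, with -0.06 for the pair of set 1 and 0.67 for that of set 2. Phlda1, a gene induced by growth factor signalling, had 41.3, 27.6 and 43.0 FPKM at 6 h, against 20.7 and 13.2 FPKM at T0, and rose by 1.12 ± 0.19 (limma adjusted p = 0.0172). Zfp36, whose protein marks cytokine mRNAs for decay, had 147.4, 138.9 and 233.4 FPKM at 6 h, against 108.2 and 45.5 FPKM at T0, and rose by 1.10 ± 0.26 (adjusted p = 0.0435). Ier3 (1.09 ± 0.19) and Arc (1.09 ± 0.21) rose as well, and so did Dusp6 (0.85), Ctgf (0.76), Myc (0.54) and Pim3 (0.52), named because they passed. For these 8 genes all 3 values at 6 h lay above both at T0, with the exception of Pim3, whose set 2 value at 6 h (45.9 FPKM) lay below the T0 value of set 1 (50.7 FPKM). Klf11, a Krüppel-like factor, had 7.81, 9.62 and 8.62 FPKM at 6 h, against 3.98 and 4.07 FPKM at T0, and rose by 0.93 ± 0.15 (adjusted p = 0.0163), the 1 call among 12 factors of its family.

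Fos, a founding member of AP-1, shows how the unirradiated libraries differed for such genes. It had 16.9, 15.5 and 45.8 FPKM at 6 h, against 130.1 FPKM at T0 in set 1 and 4.82 FPKM at T0 in set 2. The difference was -2.88 in set 1 and 1.51 in set 2, and the fitted change of -0.63 ± 0.78 did not pass. Jun (-0.57 and 0.91), Egr1 (-0.63 and 0.46), Klf4 (-0.46 and 0.35), Atf3 (-0.52 and 1.18) and Per1 (-0.67 and 0.62) also had opposite signs in sets 1 and 2. Without the T0 library of set 2, Zfp36 had 0.59 (limma adjusted p = 0.38) and Arc 0.67 (adjusted p = 0.211).

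Of 34 measured fatty acid oxidation and fasting genes 9 rose, 0 fell and 25 did not pass, against 0.902% of all genes rising. Their median was 0.25 (set 1 0.41, set 2 0.22). Like the other lists, this one was chosen with earlier results of these data known, so its count is a description and no independent support. Angptl4, a secreted inhibitor of lipoprotein lipase, had 107.5, 69.0 and 70.9 FPKM at 6 h, against 15.5 and 23.4 FPKM at T0, and rose by 1.92 ± 0.45 (limma adjusted p = 0.0437). Every library at 6 h lay above every library at T0.

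Ucp3, a mitochondrial carrier of muscle and brown fat, had 15.2, 20.5 and 10.7 FPKM at 6 h, against 4.66 and 3.88 FPKM at T0, and rose by 1.76 ± 0.36 (limma adjusted p = 0.0289), with 2.41 without the T0 library of set 1 and 1.13 (adjusted p = 0.274) without that of set 2. Txnip, an arrestin that lowers glucose uptake, had 144.2, 221.1 and 223.1 FPKM at 6 h, against 82.7 and 86.7 FPKM at T0, and rose by 0.98 ± 0.24 (adjusted p = 0.0486). A further 5 calls, named here because they passed, were Lpin1 (0.79 ± 0.19), Hadhb (0.64 ± 0.13), Cpt1a (0.62 ± 0.13), Acadl (0.49 ± 0.12) and Hadha (0.38 ± 0.09), of which Cpt1a imports fatty acids into mitochondria and Acadl, Hadha and Hadhb act in beta oxidation. Cpt1a had 73.3, 68.1 and 61.2 FPKM at 6 h, against 46.0 and 45.0 FPKM at T0. Acadl was the 1 of these 5 with an overlap, at 42.8 FPKM in set 3 at 6 h, against 44.8 and 47.7 FPKM at T0. Pdk4, a kinase that holds back glucose oxidation, had the largest estimate of the list, 2.67 ± 0.74, and did not pass (adjusted p = 0.068), with 64.7, 106.1 and 29.4 FPKM at 6 h, against 11.04 and 14.96 FPKM at T0.

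The FPKM of 29 skeletal muscle genes summed to 11700, 7520 and 6950 at 6 h, against 7500 and 4710 at T0. The 6 h sum exceeded the T0 sum within sets 1 and 2, and the groups overlapped, since the set 3 library at 6 h lay below the set 1 library at T0. The median change of the muscle genes was 0.56 (set 1 0.48, set 2 0.66), 28 of 29 were positive, and 0 passed in limma. At an unadjusted p under 0.05 there were 10 of them, against 2414 of all 10980 genes. With the mean of that list as a covariate 2 genes passed, Lce3c and Rn45s. All 474 called genes kept their direction, their changes were at a median of 0.947 times those of the fit lacking it, and their SEs at a median of 1.38 times. In that fit Angptl4 had 1.93 (adjusted p = 0.325) and Ucp3 1.78 (adjusted p = 0.289). The FPKM of 15 adipocyte genes summed to 3150, 2480 and 2080 at 6 h, against 2030 and 2450 at T0, so the groups overlapped, and the 1 member that passed, G0s2 (an inhibitor of the triglyceride lipase ATGL), fell by 1.27 ± 0.20.

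Of 24 cholesterol synthesis genes 2 fell, 0 rose and 22 did not pass, against 3.42% of all genes falling, and their median was -0.47 (set 1 -0.72, set 2 -0.21), with 21 negative estimates. The sterol demethylases Msmo1 (-0.95 ± 0.18) and Cyp51 (-0.62 ± 0.13) were these 2; Msmo1 had 40.8, 61.3 and 68.8 FPKM at 6 h, against 103.2 and 94.6 FPKM at T0. Of 25 fatty acid and triglyceride synthesis genes 4 fell, 1 rose and 20 did not pass, with a median of -0.35. Scd2, a desaturase, had 40.2, 40.7 and 61.0 FPKM at 6 h, against 107.1 and 76.6 FPKM at T0, and fell by 0.99 ± 0.21 (limma adjusted p = 0.0329). Acly (-0.50), Srebf1 (-0.49) and Fasn (-0.44) fell less, where Srebf1 encodes the factor that drives many genes of this pathway, and Acsl3, an acyl-CoA synthetase, rose by 0.81 ± 0.15 although its set 3 value at 6 h, 16.3 FPKM, lay below both T0 values (21.5 and 24.4 FPKM).

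Sebaceous gland genes (18 measured) gave 3 falls and 1 rise, against 3.42% and 0.902% of all genes. The median of -0.47 came mostly from set 1 (-0.66, against -0.12 in set 2). Far2, which makes fatty alcohols for wax esters, had 6.69, 24.9 and 18.3 FPKM at 6 h, against 26.2 and 37.7 FPKM at T0, and fell by 1.29 ± 0.24 (limma adjusted p = 0.0236). Pparg, a nuclear receptor of lipid-storing cells, had 3.57, 3.72 and 3.09 FPKM at 6 h, against 8.31 and 6.53 FPKM at T0, and fell by 0.91 ± 0.14. Krt79, a keratin of the gland's duct, fell by 0.88 ± 0.18, and the aquaglyceroporin gene Aqp3 rose by 0.90 ± 0.18. Aqp3 had 126.3 FPKM in set 2 at 6 h, just below the 127.8 FPKM of set 1 at T0. The barrier lipid gene Elovl4, needed for ultra long chain ceramides, had 65.8, 127.9 and 118.3 FPKM at 6 h, against 179.1 and 175.4 FPKM at T0, and fell by 0.99 ± 0.20 (adjusted p = 0.0265), the 1 call among 26 barrier lipid and protease genes.

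In a list of 30 hypoxia and glycolysis genes 3 fell and 0 rose, against 3.42% and 0.902% of all genes, with a median of -0.01. Slc2a1, the glucose transporter GLUT1, had 8.29, 6.19 and 14.2 FPKM at 6 h, against 21.9 and 13.5 FPKM at T0, and fell by 1.08 ± 0.15 (limma adjusted p = 0.00798); its set 3 value lay just above the T0 value of set 2. Hk1 (hexokinase 1) had 11.3, 7.24 and 11.4 FPKM at 6 h, against 20.1 and 14.8 FPKM at T0, and fell by 0.87 ± 0.13. Hif1a, the oxygen-regulated factor, had 11.8, 19.4 and 9.15 FPKM at 6 h, against 23.7 and 36.2 FPKM at T0, and fell by 0.78 ± 0.19. Among all 171 measured solute carriers 2 rose and 10 fell, against 0.902% and 3.42% of all genes, with a median of -0.04.

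Of 15 measured genes that anchor basal keratinocytes 4 fell, 0 rose and 11 did not pass, against 3.42% of all genes falling, with a median of -0.29. Col17a1, a transmembrane collagen of the hemidesmosome that also keeps epidermal stem cells in place, had 60.4, 53.7 and 83.7 FPKM at 6 h, against 164.4 and 126.9 FPKM at T0, and fell by 1.24 ± 0.16 (limma adjusted p = 0.00769). Itga6, the integrin partner of the hemidesmosome, had 12.6, 15.02 and 11.6 FPKM at 6 h, against 24.9 and 28.2 FPKM at T0, and fell by 0.82 ± 0.14. Dst, which encodes the hemidesmosome plakin BPAG1 among other forms, fell by 0.95 ± 0.19, and Col7a1, the collagen of anchoring fibrils, fell by 0.68 ± 0.13. The groups overlapped for Dst, at 17.1, 8.98 and 4.54 FPKM at 6 h, against 44.3 and 14.7 FPKM at T0, and for none of the other 3. Desmosome genes (13 measured) had a median of -0.25 with 0 past the test in limma, and 4 at an unadjusted p under 0.05. Adherens, tight and gap junction genes (18 measured) had a median of 0 with 0 past it and 5 at that level. Of all 10980 genes, 2414 were at that level. The basal keratins Krt5 (-0.47 ± 0.15) and Krt14 (-0.39 ± 0.17) and the suprabasal Krt10 (-0.15 ± 0.31) did not pass.

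Of 15 measured markers of hair follicle stem cells 6 fell, 0 rose and 9 did not pass, against 3.42% of all genes falling, with a median of -0.34. Krt15, a keratin of the bulge, had 189.9, 165.6 and 317.8 FPKM at 6 h, against 363.7 and 354.2 FPKM at T0, and fell by 1.03 ± 0.16 (limma adjusted p = 0.0145). Sostdc1, a secreted inhibitor of BMP and Wnt, had 16.4, 21.4 and 25.3 FPKM at 6 h, against 39.8 and 48.1 FPKM at T0, and fell by 1.25 ± 0.17 (adjusted p = 0.00798). Nfatc1, a factor of stem cell quiescence, had 2.65, 2.08 and 2.58 FPKM at 6 h, against 8.61 and 5.40 FPKM at T0, and fell by 1.22 ± 0.14 (adjusted p = 0.00769). Lgr6, a receptor of R-spondins, fell by 1.12 ± 0.17, and Cd34 and Lrig1 by 0.73 and 0.57. For Krt15, Sostdc1, Nfatc1, Lgr6 and Lrig1 all 3 values at 6 h lay below both at T0.

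Osr2, a zinc finger transcription factor, had 1.05, 0.872 and 3.08 FPKM at 6 h, against 5.85 and 4.95 FPKM at T0, and fell by 1.74 ± 0.16 (limma adjusted p = 0.00261). Vgll3, a cofactor of TEAD factors, had 2.12, 3.37 and 3.36 FPKM at 6 h, against 8.44 and 8.68 FPKM at T0. It fell by 1.21 ± 0.21, and Vgll4 fell by 0.45 ± 0.09. These were the 2 calls among 19 Hippo and YAP target genes (median -0.16). That list leaves out the YAP target gene Ctgf, a rise counted among the immediate early genes above. In the Wnt list (33 measured, median 0.09) the ligand Wnt7b fell by 1.10 ± 0.19 and the secreted inhibitor Sfrp1 by 0.76 ± 0.17. In the TGF-beta and BMP list (31 measured, median 0.16) Bmp4 rose by 0.59 ± 0.12 and Id4 fell by 0.88 ± 0.15. In the Notch list 0 of 15 passed in limma (2 at an unadjusted p under 0.05). Over all genes 0.902% rose and 3.42% fell, and such small counts do not set these lists apart from all genes. For Vgll3, Wnt7b, Sfrp1 and Id4 all 3 values at 6 h lay below both at T0. The groups overlapped for Vgll4 and for Bmp4, which had 23.6 FPKM in set 3 at 6 h, against 37.3 and 23.1 FPKM at T0.

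Of 21 fibrillar collagen and processing genes 3 fell, 0 rose and 18 did not pass, against 3.42% of all genes falling, and their median was -0.63 (set 1 -0.28, set 2 -1.05), with 20 negative estimates. Col1a2, a chain of type I collagen, had 218.0, 408.1 and 479.0 FPKM at 6 h, against 437.6 and 1174 FPKM at T0, and fell by 1.26 ± 0.28 (limma adjusted p = 0.0351), or had -0.78 (adjusted p = 0.341) without the T0 library of set 2; its groups overlapped across sets. Proteoglycan and elastic fibre genes gave 7 falls and 0 rises among 21, with a median of -0.52 (-0.31 and -0.87). Lum, which binds collagen fibrils, had 16.9, 54.0 and 65.6 FPKM at 6 h, against 45.4 and 115.9 FPKM at T0, and fell by 1.19 ± 0.17 (adjusted p = 0.0103). Tnxb (-1.20 ± 0.18), Mfap4 (-1.07 ± 0.18) and Eln (-1.03 ± 0.24), genes of collagen and elastic fibres, fell too. The groups overlapped for Lum and for Mfap4, which had 84.7 FPKM in set 3 at 6 h, above both T0 values of 56.3 and 81.7 FPKM, and not for Tnxb and Eln. Among 19 protease and remodelling genes the inhibitors Timp3 (-0.74) and Timp2 (-0.61) fell while the protease gene Adamts1 rose (0.84). The groups overlapped for Timp2 and Adamts1 and not for Timp3. In set 3 at 6 h Timp2 had 126.9 FPKM, against 79.8 and 131.3 FPKM at T0. Adamts1 had 13.06 FPKM there, against 13.04 and 13.59 FPKM at T0.

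MHC class II molecules present antigen on Langerhans and dendritic cells. Of 11 genes of this group measured 7 fell, 0 rose and 4 did not pass, against 3.42% of all genes falling, and their median was -0.91 (set 1 -0.82, set 2 -0.95). H2-Eb1, a class II beta chain, had 24.0, 36.9 and 91.4 FPKM at 6 h, against 46.7 and 81.6 FPKM at T0, and fell by 1.05 ± 0.14 (limma adjusted p = 0.00769). H2-Aa, an alpha chain, had 69.7, 91.5 and 210.9 FPKM at 6 h, against 132.7 and 163.9 FPKM at T0, and fell by 0.91 ± 0.12 (adjusted p = 0.00798). H2-DMb1, part of the peptide loading factor, had 7.72, 7.58 and 16.1 FPKM at 6 h, against 14.4 and 16.6 FPKM at T0, and fell by 1.0 ± 0.15. The 6 h library of set 3 was the highest of the 3 for each of the 7 genes and reached or passed a T0 value, so the groups overlapped; that set has no T0 library, and the falls rest on sets 1 and 2. The others were Cd209a (-1.42), the invariant chain gene Cd74 (-0.92), H2-Ab1 (-0.92) and H2-DMa (-0.81); Cd207 (langerin), the marker of Langerhans cells, had 2.02, 1.74 and 6.46 FPKM at 6 h, against 4.02 and 5.39 FPKM at T0, and did not pass (-0.90 ± 0.25, adjusted p = 0.0697).

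Promoters of 3 class II genes are shown because each holds ATTGG, the core letters of the Y box of class II promoters, upstream of the start. They are from RefSeq (GRCm38.p6), 250 bases before to 50 after the start on the gene's strand, with ATTGG on either strand in capitals. H2-Aa is at chr17:34287774-34288073 on the minus strand, H2-Eb1 at chr17:34305617-34305916 and H2-DMb1 at chr17:34152941-34153240 on the plus strand.
H2-Aa: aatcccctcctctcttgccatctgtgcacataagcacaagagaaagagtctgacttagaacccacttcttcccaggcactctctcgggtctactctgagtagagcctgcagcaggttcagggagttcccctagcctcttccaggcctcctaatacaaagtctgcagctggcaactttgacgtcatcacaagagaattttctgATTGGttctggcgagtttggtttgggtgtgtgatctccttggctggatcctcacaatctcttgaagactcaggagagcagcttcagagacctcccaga
H2-Eb1: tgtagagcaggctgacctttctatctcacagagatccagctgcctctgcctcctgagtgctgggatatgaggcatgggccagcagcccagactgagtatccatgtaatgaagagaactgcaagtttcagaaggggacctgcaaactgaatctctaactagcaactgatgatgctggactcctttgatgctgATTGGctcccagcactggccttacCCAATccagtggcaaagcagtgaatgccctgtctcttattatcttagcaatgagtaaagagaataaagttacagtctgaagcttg
H2-DMb1: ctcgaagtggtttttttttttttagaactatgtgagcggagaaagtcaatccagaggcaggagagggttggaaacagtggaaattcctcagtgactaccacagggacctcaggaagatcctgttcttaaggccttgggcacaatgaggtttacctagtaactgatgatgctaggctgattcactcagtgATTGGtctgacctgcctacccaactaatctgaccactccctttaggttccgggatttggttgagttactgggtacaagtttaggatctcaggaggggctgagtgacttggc
ATTGG begins at -48 in H2-Aa, -59 in H2-Eb1 and -61 in H2-DMb1, and H2-Eb1 has a second match on the other strand at -35. The motif is common: it was in 38.2% of the 8435 promoters, 39.0% of those of genes that rose and 38.0% of those of genes that fell.

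Of 11 MHC class I genes 4 fell and 0 rose, against 3.42% of all genes falling. They were Psmb9, an immunoproteasome subunit (-1.0 ± 0.21), Nlrc5, the transactivator of class I genes (-0.97 ± 0.21), and the peptide transporters Tap1 (-0.49 ± 0.10) and Tap2 (-0.43 ± 0.10). Nlrc5 had 3.49, 3.07 and 4.51 FPKM at 6 h, against 7.997 and 8.63 FPKM at T0, and all 4 genes had their 3 values at 6 h below both at T0. The heavy chain genes H2-K1 (-0.14 ± 0.11) and H2-D1 (0.05 ± 0.12) and their partner B2m (0.02 ± 0.15) did not pass. In the interferon-stimulated list Trim25 (-0.52 ± 0.12) was the 1 call among 17, and the list's median was -0.25.

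**Figure D4:**
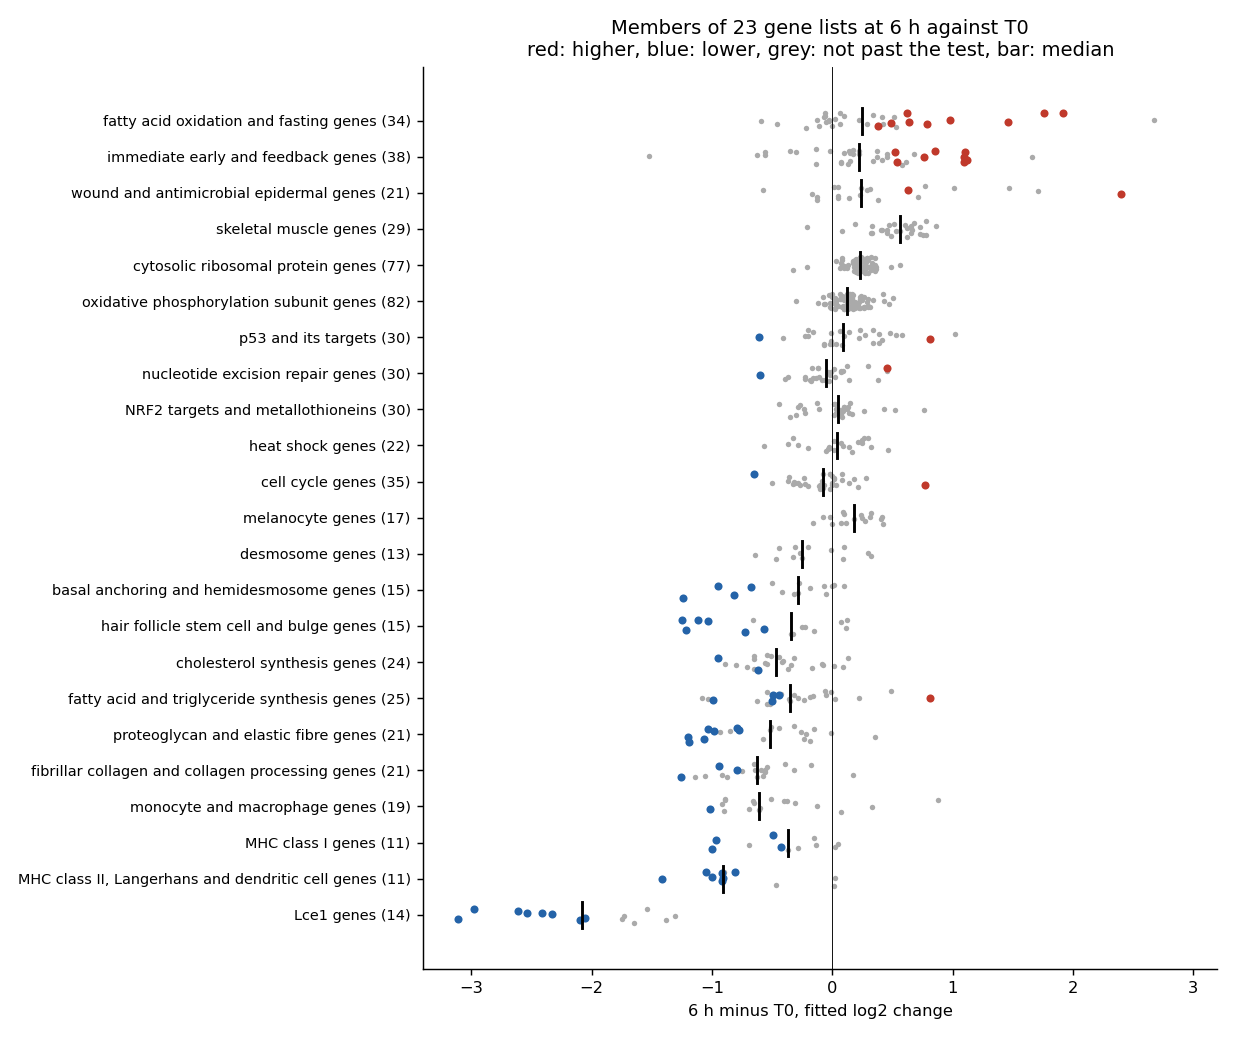
Fitted change at 6 h against T0 (log2) of each measured member of 23 gene lists, with the number measured in parentheses; red points rose, blue points fell, grey points did not pass, and the black bar is the list's median. Fatty acid oxidation and immediate early genes carry the most red points, the Lce1, class II, bulge and proteoglycan lists the most blue ones, and ribosomal protein and oxidative phosphorylation genes lie in a narrow band of grey points just above 0.

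Single genes of the known UV damage programmes passed at 6 h, beside 0.902% of all genes rising and 3.42% falling. Such small counts do not set these lists apart from all genes. Of 30 measured p53 genes and targets 1 rose and 1 fell, with a median of 0.09: Sertad1 rose by 0.81 ± 0.16 and Ephx1, an epoxide hydrolase, fell by 0.61 ± 0.14. Cdkn1a, the cell cycle inhibitor p21, had 260.4, 234.3 and 381.5 FPKM at 6 h, against 205.1 and 168.6 FPKM at T0; all 3 values at 6 h lay above both at T0, and the change of 0.53 ± 0.18 did not pass (limma adjusted p = 0.113). Mdm2 (0.27 ± 0.20) and Trp53 (0.03 ± 0.13) did not pass. Of 30 excision repair genes Xab2 rose by 0.45 ± 0.10 and Gtf2h3, a subunit of TFIIH, fell by 0.60 ± 0.11, while the damage sensors Xpc (-0.01 ± 0.12) and Ddb2 (-0.37 ± 0.15) did not pass. Among 35 cell cycle genes the inhibitor Cdkn2b rose by 0.77 ± 0.19 and Ccnd1, cyclin D1, fell by 0.65 ± 0.13. Cdkn2b had 13.8 FPKM in set 2 at 6 h, below the 14.1 FPKM of set 1 at T0. Ccnd1 had 47.0, 46.2 and 54.3 FPKM at 6 h, against 66.0 and 75.1 FPKM at T0. Gadd45g, a growth arrest gene, rose by 0.66 ± 0.14, and Gadd45a (0.33 ± 0.12) and Gadd45b (0.22 ± 0.15) did not pass.

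Single stress genes passed, beside 0.902% of all genes rising and 3.42% falling. Atf4, the central factor of the integrated stress response, had 223.5, 156.1 and 181.6 FPKM at 6 h, against 138.8 and 101.3 FPKM at T0, and rose by 0.64 ± 0.10 (limma adjusted p = 0.0152), the 1 call among 25 genes of that list (median 0.04); Ddit3 had a change of 0.10 ± 0.14. In the list of 25 unfolded protein response genes Dnajb9, an ER co-chaperone, rose by 0.77 ± 0.18 and Pdia4, an ER oxidoreductase, fell by 0.54 ± 0.11. Heat shock genes (22 measured) had 0 calls in limma and 4 genes at an unadjusted p under 0.05, and NRF2 targets and metallothioneins (30 measured) had 0 calls and 3. The metallothionein Mt1 had 2012, 538.4 and 848.5 FPKM at 6 h, against 941.8 and 294.9 FPKM at T0, with a change of 0.76 ± 0.35. Prostaglandin pathway genes (13 measured) had 0 calls and 4 genes at that level, which 2414 of all 10980 genes reached.

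Clock and hormone genes gave single calls, beside 0.902% of all genes rising and 3.42% falling. Counts this small do not set these lists apart from all genes. Per3, a clock repressor, had 4.601, 4.77 and 3.64 FPKM at 6 h, against 9.10 and 8.31 FPKM at T0, and fell by 0.84 ± 0.17, and Nfil3 rose by 0.71 ± 0.13, out of 19 clock and output genes. Cebpd, a factor of acute phase and glucocorticoid responses, had 14.3, 24.3 and 30.6 FPKM at 6 h, against 5.26 and 4.27 FPKM at T0, and rose by 1.69 ± 0.33 (limma adjusted p = 0.0241). Pik3r1 fell by 0.66 ± 0.16 in the same list of 21 glucocorticoid-responsive genes, whose median was -0.09 in set 1 and 0.61 in set 2; Tsc22d3 had -0.36 and 0.87, and Fkbp5 0.24 and 1.19.

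Other genes with large rises had no list in common. Rn45s, the precursor of ribosomal RNA, had 880.3, 401.4 and 648.8 FPKM at 6 h, against 216.1 and 131.8 FPKM at T0, and rose by 1.93 ± 0.24 (limma adjusted p = 0.00769); it was the 1 call among 32 nucleolar genes, and how ribosomal RNA was removed is not given in the sources used here. Nppb, the brain natriuretic peptide gene, had 4.62, 3.01 and 5.65 FPKM at 6 h, against 2.03 and 0 FPKM at T0, and rose by 1.49 ± 0.27, with 2.08 without the T0 library of set 1, 0.92 (adjusted p = 0.134) without that of set 2, and 3.07 (adjusted p = 0.0501) with a pseudocount of 0.1. Mrap, an accessory protein of melanocortin receptors, had 22.6, 12.0 and 12.0 FPKM at 6 h, against 4.01 and 5.34 FPKM at T0, and rose by 1.47 ± 0.28. Tmem252 (1.85 ± 0.32), Ager (1.45 ± 0.19), which encodes the receptor RAGE, and Klhl38 (1.22 ± 0.30) rose likewise. Among the large falls were Gramd1c (-1.70 ± 0.24), Chl1, a neural adhesion gene (-1.58 ± 0.21), the antisense transcript Chd3os (-1.56 ± 0.24), whose reads cannot be told from those of its partner as strandedness is not given, and Paqr7 (-1.54 ± 0.36).

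Housekeeping groups and several cell types had no call in limma. All 77 ribosomal protein genes missed the threshold, with a median of 0.23 and 0 at an unadjusted p under 0.05, and so did all 82 oxidative phosphorylation subunits (median 0.12, with 2 at that level), 73 spliceosome genes (median 0.02, with 8) and 36 histone methylation genes (median 0.04, with 3). Melanocyte genes had a median of 0.18 with 0 of 17 past the test and 2 at that level; Tyr, which catalyses the first step of melanin synthesis, had 30.7, 48.1 and 31.5 FPKM at 6 h, against 29.6 and 42.1 FPKM at T0. Hair shaft and root sheath genes had a median of 0.33 with 0 of 26 past it and 7 at that level. The 4 T cell genes had a median of -0.62 (set 1 -0.42, set 2 -0.46), all 4 negative, with 0 past it and 3 at that level. The 7 mast cell and granulocyte genes had a median of -0.36 (set 1 0.15, set 2 -0.93), with 0 past it and 1 at that level. With 4.32% of all genes called, 0 calls in lists this short say little. Of all 10980 genes, 2414 had an unadjusted p under 0.05 in limma. S100a8, an alarmin of neutrophils and injured keratinocytes, had 30.6, 7.21 and 7.90 FPKM at 6 h, against 27.4 and 5.82 FPKM at T0.

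The neighbouring time points place the 6 h values against groups other than T0. These comparisons share the 6 h libraries with the one above, so their values are set side by side. The T0 libraries still enter them through the library set term and the shared estimate of the spread. Against 2 h, 157 genes were higher at 6 h (1.43%) and 72 lower (0.656%), and 12 h against 6 h gave 49 higher (0.446%) and 25 lower (0.228%). Lce3c was higher at 6 h than at 2 h by 2.95 ± 0.23 (limma adjusted p = 0.00121), with 5.95, 1.51 and 3.13 FPKM at 2 h, and had 97.9 and 43.1 FPKM at 12 h in sets 1 and 2, above the 35.0 and 15.9 FPKM at 6 h (1.23 ± 0.27, adjusted p = 0.0711). Cpt1a (0.67 and -1.06), Hadhb (0.56 and -0.71) and Ctgf (0.83 and -0.83) passed in both of these comparisons with the same pair of signs. Angptl4 (-2.45), Txnip (-1.63), Klf11 (-1.77), Rn45s (-1.35) and Ager (-1.36) were lower at 12 h than at 6 h, and none of these 5 passed against 2 h.

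Genes that fell showed other courses. Krt15, Sostdc1, Slc2a1, Osr2 and Srebf1 were lower at 6 h than at 2 h, with -0.66, -0.76, -0.69, -0.75 and -0.48. Scd2 (1.41 ± 0.21), Cyp51 (0.76), Pparg (0.81), G0s2 (2.02), Timp3 (0.72) and Pdia4 (0.69) were higher at 12 h than at 6 h by limma. For Scd2 the 12 h values were 166.6 and 87.8 FPKM in sets 1 and 2, against 40.2 and 40.7 FPKM at 6 h. The class II genes H2-Aa (-0.94), H2-Eb1 (-0.93) and Cd74 (-0.77) were lower still at 12 h than at 6 h. Col17a1 (-0.04 and -0.09), Kprp (0.07 and -0.45) and Btc (0.05 and -0.25) passed in neither neighbouring comparison, and in set 1 Kprp was already at 34.9 FPKM at 0.5 h, against 146.6 FPKM at T0.

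**Figure D5:**
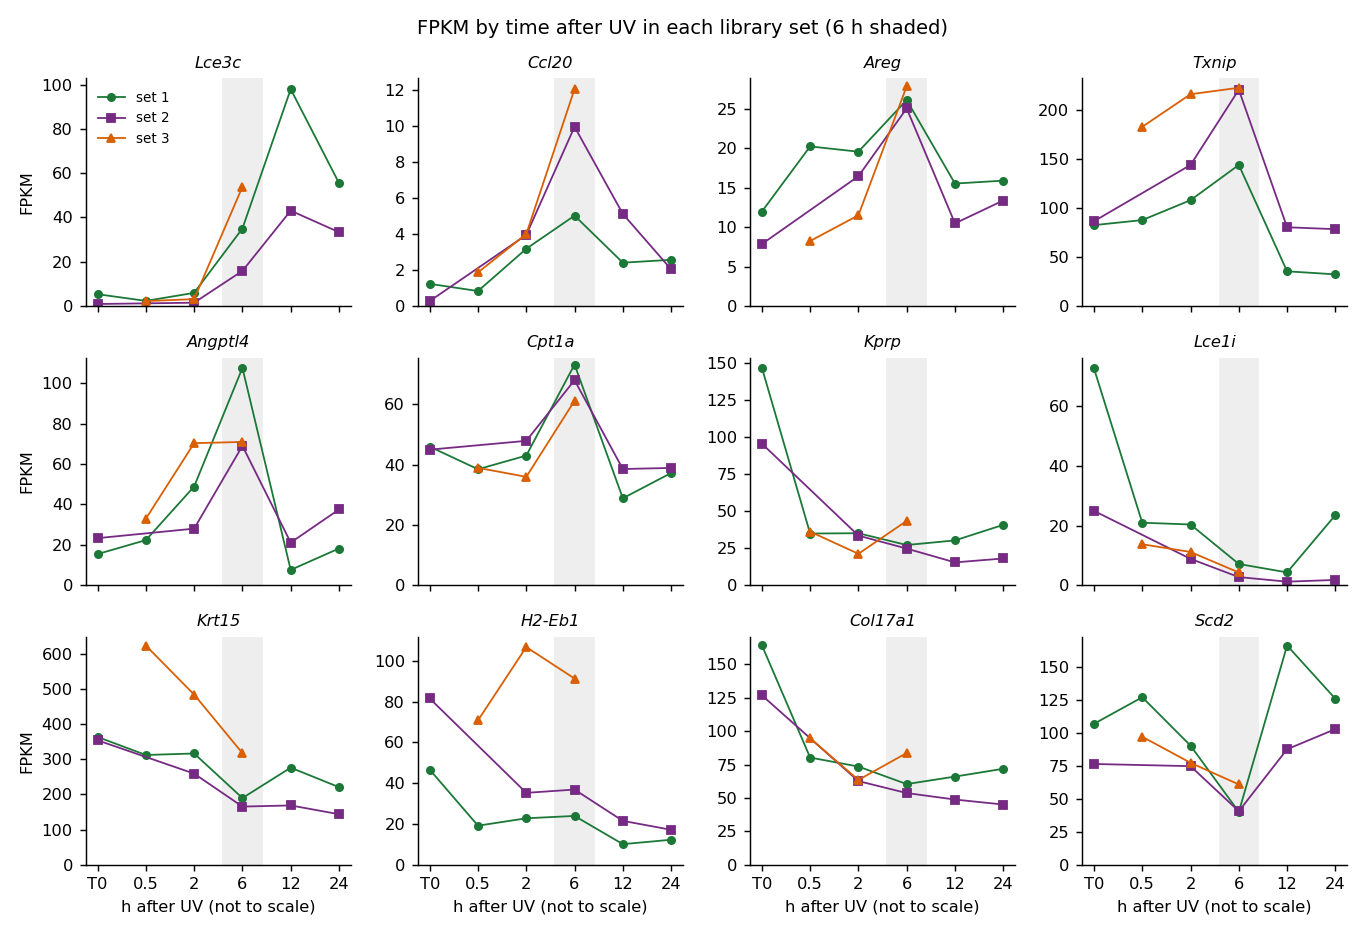
FPKM of 12 genes by time after UV, in time order and not to scale, with 1 line per library set (green circles set 1, purple squares set 2, orange triangles set 3) and 6 h shaded. Areg and Cpt1a have their highest value of each set at 6 h, Lce3c is higher still at 12 h, Lce1i and Kprp are well below T0 before 6 h, and Scd2 is lowest at 6 h in each set.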

How the data were processed

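RNA from full-thickness back skin was sequenced on an Illumina platform after Trizol extraction, per the labels' protocols. The authors deposited 1 table of FPKM values for 10980 genes in 14 libraries; the submitters' processing notes name TopHat2 2.1.0, Cufflinks 2.2.1 and the mm10 build. Every gene had 1 FPKM or more in at least 2 libraries, so low genes had been left out before deposit. How multiply matching reads and strand were handled is not given in the sources used here. An exact 0 can be a failed estimate.

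FPKM values were converted to log2(FPKM + 1), which understates changes of low genes, and fitted with limma 3.58.1 (R 4.3.3) over all 14 libraries, with group means, a library set term and a mean-variance trend. Two-sided p-values were adjusted by the Benjamini-Hochberg method across all 10980 genes, and genes under 0.05 were called. The fit had 6 residual degrees of freedom and was tested on simulated data. FPKM is not a count, so no count model was used. In 8 libraries the FPKM values gave whole reads per gene for 10952 of 10954 genes within a relative tolerance of 1e-11; the depth of the other 6 libraries is unknown.

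The column headers carry no replicate numbers. The 3 library sets, read from number format and header style, hold the same time points as the replicate numbers in the titles, and that is how they were linked. Deviations from the group means correlated at 0.411 or more in all 28 pairs of libraries from 1 set, against at most 0.492 in pairs from different sets. Between T0 and 6 h they correlated at 0.814 (set 1) and 0.717 (set 2). In a group of 2 libraries the deviations mirror each other, so these pairs are not separate observations. The T0 library placed in set 2 correlated at 0.964 with set 2 and 0.888 with set 3.

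The genes named are the 15 largest rises and 15 largest falls with the same sign in sets 1 and 2; 1 of them is not reported here. In each gene list, the up to 4 largest changes past the threshold and the leading regulators are also named; where none passed, up to 3 of the most abundant members are. Other genes, among them Lce1m and Pglyrp4, the remaining list members that passed, and genes that missed the threshold, were named after their values were seen. The lists and members were chosen with earlier results of these data known. Promoters came from RefSeq (GRCm38.p6), matched by symbol for 8435 of 10599 genes found there, and were read with Biopython 1.88, pandas 2.3.3, numpy 2.4.6 and Python 3.11.15. Alternatives were no library set term, other pseudocounts, a higher filter, 2 other scalings, other limma settings, a muscle covariate, fewer libraries and leaving out each library. Restricting the fit to 2 of the 3 sets was chosen after seeing the data.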

Additional observations from a re-analysis of the deposited data

Results flagged for a closer look

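For 16 of the genes named by rule, the change at 6 h differed from the change at 2 h, tested by limma as 6 h against 2 h. The same 6 h libraries enter the comparison with T0, so these values are no independent support for it. The difference was positive for Lce3c (2.95, adjusted p = 0.00121), Krt6b (2.66, adjusted p = 0.0317) and Lce3d (2.65, adjusted p = 0.0275). It was also positive for Nppb (1.25), Mrap (1.14), Phlda1 (1.10), Adamts1 (0.77), Dnajb9 (0.73), Acsl3 (0.71), Bmp4 (0.71) and the zinc finger gene Zfp7 (0.63), with adjusted p between 0.0135 and 0.0463. It was negative for Sostdc1 (-0.76), Osr2 (-0.75), Slc2a1 (-0.69), Krt15 (-0.66) and Srebf1 (-0.48), with adjusted p between 0.0295 and 0.0445. Groups of 2 or 3 libraries are too small for a check of single outlying libraries.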

How the results depend on the processing

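Without the library set as a replicate block, 0 genes passed at 6 h against T0 in limma (615 at an unadjusted p under 0.05), 0 at 6 h against 2 h (360) and 1 at 12 h against 6 h. With the muscle covariate 2 genes passed at 6 h against T0, and in sets 2 and 3 alone 163; at 6 h against 2 h, sets 1 and 2 alone gave 7 and sets 2 and 3 alone 112. Quantile normalization gave 129 calls at 12 h against 6 h. Leaving out 1 library gave 2 to 960 calls at 6 h against T0, 8 to 363 at 6 h against 2 h (8 when either 2 h in set 3 or 6 h in set 2 was omitted, 363 when 6 h in set 1 was) and 0 to 254 at 12 h against 6 h (0 without the 12 h library of set 1, with 959 at an unadjusted p under 0.05, and 254 without the 6 h library of set 3). Other pseudocounts, the higher filter, scalings and limma settings gave 397 to 567 calls at 6 h against T0. Fits to the 4 matched libraries, to all 5 libraries of both groups, or to sets 1 and 2 gave 701, 692 and 633. These included 323, 319 and 381 of the 474 calls of the main fit, so many of the calls were other genes. The fits to 4 and 5 libraries leave few residual degrees of freedom. None of the 115 called genes named by rule reversed under any alternative. Fos, which did not pass, reversed in sets 2 and 3 alone, to 1.46 (adjusted p = 0.00631); T0 is then only the set 2 library. Unless the alternative itself uses fewer libraries, the cause was not tested. With 2 unirradiated libraries and 1 set without T0, the spread of T0 is poorly known.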
